A study of Mus musculus with 6 samples.

Results

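The genes described here encode 10 transcription factors, picked by Ensembl identifier from the 30543 genes of the count table: the FOS family (FOS, FOSB, FOSL1 and FOSL2), the JUN family (JUN, JUNB and JUND), ATF3, EGR1 and MYC. FOS and JUN proteins pair through leucine zippers to form AP-1, the dimer that binds TPA-response elements in promoters and enhancers. Many of these genes are immediate early genes: growth factors and stress switch them on within minutes through kinases of the MAPK pathways, without new protein synthesis, and their mRNAs are short-lived. In carcinoma cells they are known as readouts of growth factor signaling.

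RNA was sequenced from CFPAC-1 cells, an established human ductal pancreatic adenocarcinoma line, 3 libraries after transfection with a siRNA against KRT7, a keratin of ductal epithelium (si-KRT7), and 3 after a negative control siRNA (si-Control). Both groups thus went through siRNA transfection, and no untransfected cells were compared. The labels give neither the KRT7 duplex used nor the time of harvest, and they do not say whether replicates were separate cultures, so p-values measure only the spread between these libraries. The labels name the mouse as organism, whereas every identifier in the table is a human Ensembl identifier.

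Total counts lay between 28208896 and 36315802 per library, with the fewest in si-KRT7 replicate 2. In that library the 20 genes with most counts held 10.1% of all counts, against 8.6% to 9.2% in the others. One library stood apart: si-KRT7 replicate 2 had a Pearson correlation of 0.9819 with si-KRT7 replicate 1 and 0.9825 with replicate 3 across the log2 CPM of all genes tested, against 0.992 between replicates 1 and 3. The fold changes, group overlaps and count ratios are therefore also given without it. The KRT7 row was not identified here, because no table used here pairs human identifiers with names. ENSG00000135480 was picked for its large decrease in edgeR with all 6 libraries (-2.80 on the log2 scale, adjusted p = 0.000436). It retained 12.2%, 18.3% and 12.6% of its mean si-Control level in si-KRT7 replicates 1, 2 and 3. Replicate 2 was part of the fit behind that choice, so its low level there is no separate check on that library.

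In si-KRT7 cells, EGR1, FOSB, JUN and FOS were lower than in si-Control cells, at 58.3%, 62.3%, 66.6% and 67.9% of the si-Control mean. JUNB, at 73.0%, and ATF3, at 77.6%, were below every si-Control library but did not pass the test across all genes. MYC, FOSL1, JUND and FOSL2, at 92.1%, 93.0%, 96.0% and 102% of the si-Control mean, overlapped between the groups. With all 6 libraries, within the FOS family FOS and FOSB were lower while FOSL1 and FOSL2 were not, and within the JUN family JUN was lower while JUND was not. For FOSL1 and JUND the lack of a call depended on si-KRT7 replicate 2, as it did for every other member not called. Without si-KRT7 replicate 2, FOSL1 (-0.30 on the log2 scale, adjusted p = 0.00401 in edgeR) and JUND (-0.24, adjusted p = 0.00105) were lower as well. Their decreases stayed smaller than those of FOS (-0.53), FOSB (-0.63) and JUN (-0.58) in that fit. FOSL2 was higher there (0.11, adjusted p = 0.0179 in edgeR), and 42.9% of all genes were called. Differences within a family were compared through count ratios, in an exact permutation test that cannot go below p = 0.1 with 3 libraries against 3.

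All 10 genes passed the filter on low counts, and 4 of them had an adjusted p under 0.05 in edgeR's quasi-likelihood test, all 4 lower. Over the 15736 genes tested, 2.07% had an adjusted p under 0.05, 1.35% lower and 0.712% higher. With all 6 libraries, no member was higher with an adjusted or an unadjusted p under 0.05 in edgeR, and 0 were higher with DESeq2's Wald test or limma-voom. Limma-voom with sample quality weights, which called 43.6% of all genes, called 1 member higher, FOSL2. At an unadjusted p under 0.05, 6 of the 10 were called, all lower, against 18.6% of all genes and 9.08% lower. The median log2 fold change was -0.41 over the 10 members and 0.01 over all genes tested, and 9 of the 10 were below 0, as were 48.3% of all genes. No member reached an absolute log2 fold change of 1 in this fit or in any alternative, a limit that 0.292% of all genes passed together with the adjusted p.

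**Figure D1:**
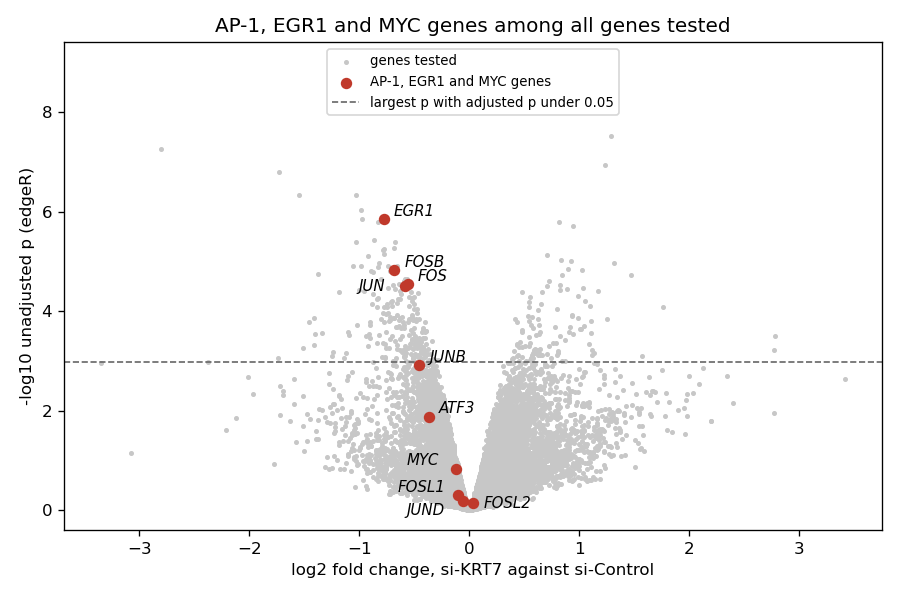
Log2 fold change of si-KRT7 against si-Control (horizontal axis) and -log10 of the unadjusted p from edgeR's quasi-likelihood test (vertical axis) for the 15736 genes tested (grey), with the 10 transcription factor genes in red. EGR1, FOSB, JUN and FOS lie above the dashed line, which marks the largest p with an adjusted p under 0.05, and JUNB lies just under it.

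EGR1 (ENSG00000120738) encodes a zinc finger factor that binds GC-rich promoter elements and is switched on by ERK through serum response factor. Its level was 555, 547 and 571 CPM (counts scaled to a common library size, with TMM normalization) in si-Control replicates 1, 2 and 3. In si-KRT7 replicates 1, 2 and 3 it was 324, 320 and 332 CPM. The groups were far apart, and the si-KRT7 libraries lay within a range narrower than that of the si-Control libraries. EGR1 fell by 0.78 on the log2 scale (standard error 0.06), with an adjusted p of 0.00237 in edgeR's quasi-likelihood test, which ranked 9 by p among the 15736 genes. In size it was moderate, since 4.75% of all genes had a larger absolute log2 fold change.

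FOS (ENSG00000170345), the founding partner of JUN in AP-1, was measured at 707, 704 and 718 CPM in si-Control replicates 1, 2 and 3. It stood at 506, 457 and 482 CPM in the si-KRT7 libraries in the same order. Every si-KRT7 library lay well below the si-Control range. The means were 710 ± 7.24 CPM and 482 ± 24.7 CPM (SD, n = 3 each), a difference of -0.56 on the log2 scale (standard error 0.07) with an adjusted p of 0.00965 in edgeR.

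FOSB (ENSG00000125740) is the closest relative of FOS among the serum-induced subunits. It was measured at 218, 226 and 219 CPM in the si-Control libraries and at 144, 128 and 142 CPM in the si-KRT7 libraries. On the log2 scale it fell by 0.68 (edgeR, standard error 0.08, adjusted p = 0.00688), which was the second largest decrease of the 10 genes, after EGR1. In both FOS and FOSB, si-KRT7 replicate 2 was the lowest library.

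JUN (ENSG00000177606) encodes the AP-1 subunit that can pair with itself as well as with FOS proteins and is activated by JNK. Its level was 154, 151 and 149 CPM in si-Control replicates 1, 2 and 3 and 105, 99.6 and 97.1 CPM in si-KRT7 replicates 1, 2 and 3. Here too the groups did not overlap, and replicate 2 lay between the other two si-KRT7 libraries. JUN fell by 0.59 on the log2 scale (standard error 0.07), with an adjusted p of 0.00968 in edgeR.

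These 4 calls depended on which libraries were in the fit. All 4 stayed without si-KRT7 replicate 1 (adjusted p between 0.0174 and 0.0351 in edgeR) and without replicate 2. Leaving out any 1 si-Control library put all 4 over the adjusted limit in edgeR, with 0 members called and an adjusted p between 0.0516 and 0.116, although 5 or 6 members kept an unadjusted p under 0.05. Without si-KRT7 replicate 3, EGR1 and FOSB were called and FOS and JUN were not (adjusted p = 0.0617 and 0.0681 in edgeR). The estimates themselves moved little: with each of the 6 libraries left out in turn, the log2 fold change lay between -0.79 and -0.76 for EGR1, -0.72 and -0.63 for FOSB, -0.60 and -0.53 for FOS, and -0.62 and -0.56 for JUN. The share of all genes called also moved, from 2.07% with all 6 libraries to 0.0372% to 0.0616% without a si-Control library. It was 0.542% without si-KRT7 replicate 1, 42.9% without replicate 2 and 0.223% without replicate 3.

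JUNB (ENSG00000171223), an AP-1 subunit with weaker activating capacity than JUN, was at 455, 434 and 460 CPM in the si-Control libraries. In si-KRT7 replicates 1, 2 and 3 it was at 304, 375 and 307 CPM. All 3 were below the si-Control range, with replicate 2 the nearest to it. The log2 fold change was -0.45 (standard error 0.09), and the adjusted p of 0.0546 in edgeR missed the limit. JUNB was called in 5 of 15 alternative settings. Among them were DESeq2's Wald test (adjusted p = 0.00267), which called 7.3% of all genes, and library size alone as the normalization (0.0406 in edgeR). Another was the fit without si-KRT7 replicate 2 (7.18e-12 in edgeR, log2 fold change -0.56), which called 42.9% of all genes. It was not called in edgeR without a si-Control library (adjusted p between 0.218 and 0.287), nor without si-KRT7 replicate 1 (0.17) or 3 (0.203).

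ATF3 (ENSG00000162772) encodes a stress-induced factor that pairs with JUN proteins. It had the fewest counts of the 10 genes, 345 to 403 per si-Control library and 235 to 292 per si-KRT7 library. Its levels were 11.68, 9.92 and 10.96 CPM in si-Control and 7.86, 8.55 and 8.86 CPM in si-KRT7 replicates 1, 2 and 3. Its log2 fold change was -0.37 (standard error 0.12, adjusted p = 0.148 in edgeR). Its coefficient of variation was 6.07% between si-KRT7 and 8.16% between si-Control libraries, where counting error alone gives 6.12% and 5.21%.

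Of the 10 genes, 6 had groups that did not overlap, all 6 lower, whereas 24.4% of all genes did not overlap, 13.0% lower and 11.3% higher. For each of these 6 the two-sided exact permutation test over libraries gave p = 0.1, the smallest p that 3 against 3 allow.

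**Figure D2:**
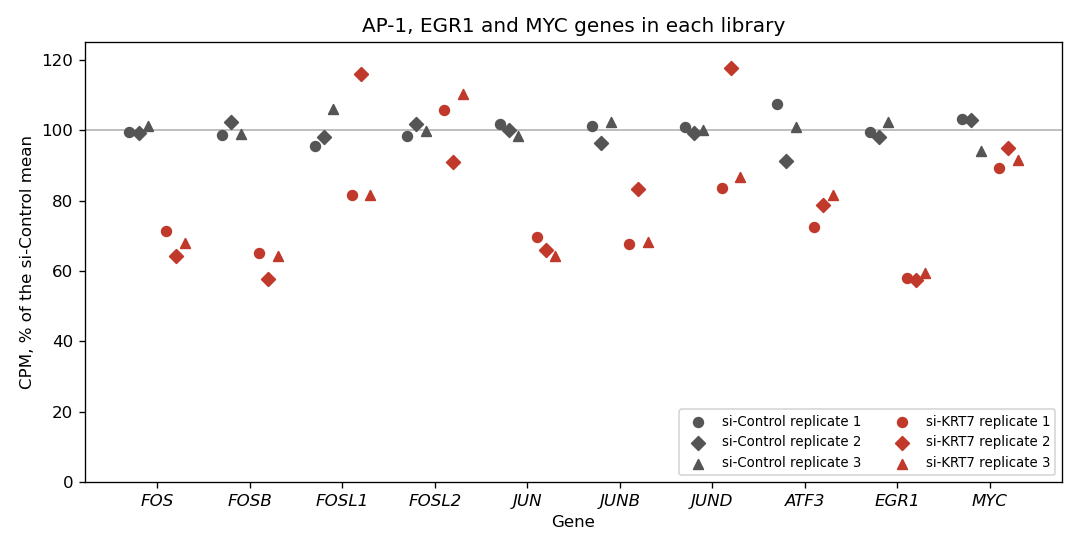
CPM of each gene in each library as a percentage of that gene's si-Control mean (vertical axis, starting at 0), with si-Control in grey, si-KRT7 in red and the replicate number by symbol. EGR1 lies between 57.4% and 59.5% in all 3 si-KRT7 libraries, while FOSL1 and JUND lie between 81.6% and 86.7% in replicates 1 and 3 and at 116% and 118% in replicate 2.

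FOSL1 (ENSG00000175592), which encodes FRA-1, the FOS-family subunit tied to sustained ERK signaling and invasion in carcinoma cells, was at 22.8, 23.4 and 25.3 CPM in si-Control. In si-KRT7 replicates 1, 2 and 3 it was at 19.4, 27.6 and 19.4 CPM. Replicates 1 and 3 were below every si-Control library and replicate 2 was above every one, so the mean of the group says little about any of its libraries. The log2 fold change was -0.11 (standard error 0.15, adjusted p = 0.753 in edgeR).

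JUND (ENSG00000130522), the JUN-family subunit that is expressed in resting cells and responds least to serum, showed the same layout. It was at 57.8, 56.8 and 57.3 CPM in si-Control and at 47.8, 67.3 and 49.7 CPM in si-KRT7 replicates 1, 2 and 3. Its coefficient of variation was 0.880% between si-Control libraries and 19.6% between si-KRT7 libraries. Its log2 fold change was -0.06 (standard error 0.13, adjusted p = 0.849 in edgeR), and its sign turned without si-KRT7 replicate 1 (0.03) or 3 (0.01).

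FOSL2 (ENSG00000075426), which encodes FRA-2, had the mirror-image layout. Its level was 170, 177 and 173 CPM in si-Control and 183, 158 and 191 CPM in si-KRT7 replicates 1, 2 and 3. Replicates 1 and 3 were above and replicate 2 was below every si-Control library. The log2 fold change was 0.03 (standard error 0.09, adjusted p = 0.872 in edgeR).

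MYC (ENSG00000136997) encodes the basic helix-loop-helix factor that pairs with MAX and drives growth and ribosome synthesis. It was at 177, 177 and 162 CPM in si-Control and at 154, 164 and 158 CPM in si-KRT7 replicates 1, 2 and 3. The groups touched only through si-Control replicate 3, which was below si-KRT7 replicate 2. The log2 fold change was -0.12 (standard error 0.07, adjusted p = 0.436 in edgeR), and with a two-sided exact permutation test p was 0.2.

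The spread between si-KRT7 libraries differed widely among the 10 genes. The coefficient of variation was 1.89% for EGR1, 3.13% for MYC and 4.23% for JUN, and 12.2% for JUNB, 19.6% for JUND and 21.3% for FOSL1, where counting error alone gives 3.80% for FOSL1 and less for JUND and JUNB. Its median over the 12462 genes that averaged 50 counts or more was 13.9% in si-KRT7 and 4.80% in si-Control. EGR1 was thus among the steadiest genes of the si-KRT7 group, with 97.3% of those genes more variable, while FOSL1 and JUND were more variable than the median gene.

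Replicate 2 of si-KRT7 lay below replicates 1 and 3 in 4 members (FOS, FOSB, FOSL2 and EGR1), above both in 4 (FOSL1, JUNB, JUND and MYC) and between them in 2 (JUN and ATF3). Over all genes tested it lay below both in 43.0% and above both in 44.0%. On the log2 scale its distance from the mean of replicates 1 and 3 was 0.50 for FOSL1, 0.47 for JUND and 0.30 for JUNB, and -0.25 for FOSL2 and -0.04 for EGR1. A larger distance in either direction was found in 28.8% of all genes for FOSL1 and in 94.3% for EGR1. The part of replicate 2 in these results is shown by the fits without it, and its cause was not tested.

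Without si-KRT7 replicate 2, all 10 members had an adjusted p under 0.05 in edgeR, 9 lower and 1 higher. In that fit 42.9% of all genes did, 22.0% lower and 20.9% higher, and the common biological coefficient of variation was 0.0485 in place of 0.130. A call in that fit therefore sets a gene less apart from the rest. The log2 fold changes were -0.77 for EGR1, -0.63 for FOSB, -0.58 for JUN, -0.56 for JUNB, -0.53 for FOS and -0.38 for ATF3. For these 6 the size hardly depended on replicate 2, apart from the larger decrease of JUNB. For FOSL1 the value was -0.30 (adjusted p = 0.00401), for JUND -0.24 (0.00105) and for MYC -0.15 (0.00539), and FOSL2 was the 1 gene that was higher, at 0.11 (0.0179). These are small: 42.6% of all genes had a larger absolute log2 fold change than FOSL1 in that fit. For JUND, MYC and FOSL2 the share was 52.2%, 69.1% and 76.8%. All 10 members had groups without overlap in that comparison, as did 61.5% of all genes. The median over the members was -0.45, against -0.01 over all genes.

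**Figure D3:**
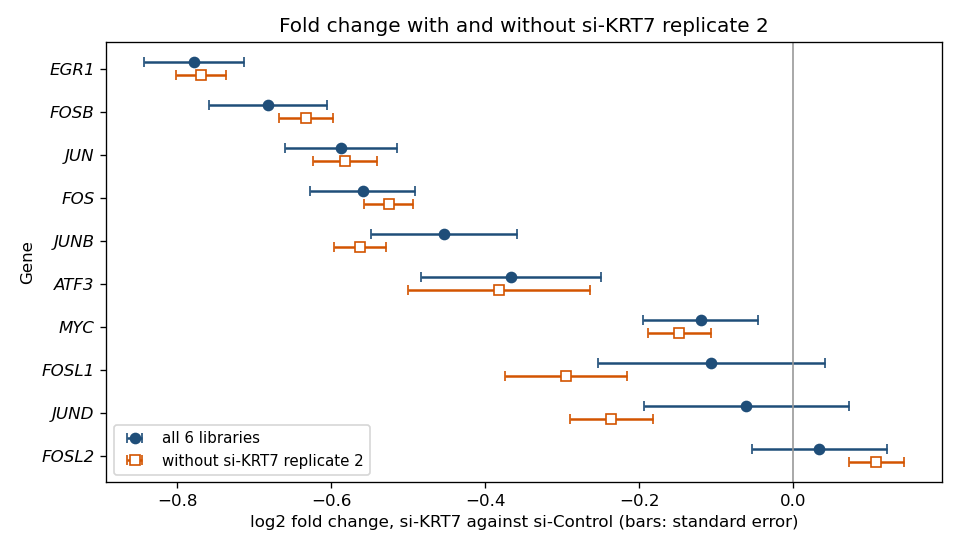
Log2 fold change of si-KRT7 against si-Control with its standard error (horizontal axis) for each gene, from all 6 libraries (filled circles) and without si-KRT7 replicate 2 (open squares). EGR1 stays at -0.78 and -0.77, whereas FOSL1 moves from -0.11 to -0.30 and JUND from -0.06 to -0.24.

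The balance between mRNAs of AP-1 genes was compared through ratios of counts within a library, in which depth and normalization cancel. AP-1 proteins and dimers were not measured. These ratios show how a pair shifted between groups and not which gene of a pair was more abundant, since gene length was not taken into account. For JUN to JUND the log2 ratio was 1.41, 1.42 and 1.38 in si-Control and 1.14, 0.57 and 0.97 in si-KRT7 replicates 1, 2 and 3. The balance between the inducible and the constitutive JUN protein genes was lower in every si-KRT7 library, by 0.51 on average. For FOSL1 to FOS the log2 ratio was -4.96, -4.91 and -4.83 in si-Control and -4.70, -4.05 and -4.63 in si-KRT7, higher in every si-KRT7 library and by 0.44 on average. For JUN to FOSL1 it was 2.76, 2.69 and 2.56 in si-Control and 2.44, 1.85 and 2.32 in si-KRT7, lower by 0.47 on average. Each of these 3 ratios had groups that did not overlap and an exact permutation p of 0.1, the smallest the design allows, or 0.167 after Benjamini-Hochberg adjustment over the 5 ratios compared. They share JUN or FOSL1 and restate in part the decreases of JUN and FOS, so they are not separate results. Of single genes 24.4% did not overlap, and the share for gene pairs was not computed.

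The other 2 ratios overlapped between the groups. For FOSL1 to FOSL2 the difference was -0.15 (exact permutation p = 0.6), with -3.24, -2.52 and -3.30 in si-KRT7 replicates 1, 2 and 3 and -2.86 ± 0.08 (SD, n = 3) in si-Control, so that replicate 2 lay on the other side of the si-Control libraries. For JUNB to JUN the difference was 0.13 (exact permutation p = 0.4). Without si-KRT7 replicate 2 the differences were -0.35 for JUN to JUND, 0.23 for FOSL1 to FOS, -0.29 for JUN to FOSL1, -0.40 for FOSL1 to FOSL2 and 0.0222 for JUNB to JUN. For FOSL1 to FOSL2 the difference shrank to -0.0424 without si-KRT7 replicate 1 and to -0.0115 without replicate 3.

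A further 4 ratios to FOS were chosen after the values were seen and were given no test. The log2 ratio of EGR1 to FOS was -0.35, -0.36 and -0.33 in si-Control and -0.64, -0.51 and -0.54 in si-KRT7, so EGR1 was reduced further than FOS in each si-KRT7 library. For FOSB to FOS the si-Control libraries lay between -1.71 and -1.64 and the si-KRT7 libraries between -1.84 and -1.76. JUN to FOS overlapped, with -2.23 ± 0.04 in si-Control and -2.26 ± 0.06 in si-KRT7 (SD, n = 3 each). FOSL2 to FOS was higher by 0.59 on average, from -2.03 ± 0.03 to -1.44 ± 0.10 (SD, n = 3 each), and the groups did not overlap. Without si-KRT7 replicate 2 the differences were -0.24 for EGR1 to FOS, -0.11 for FOSB to FOS, -0.06 for JUN to FOS and 0.63 for FOSL2 to FOS.

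**Figure D4:**
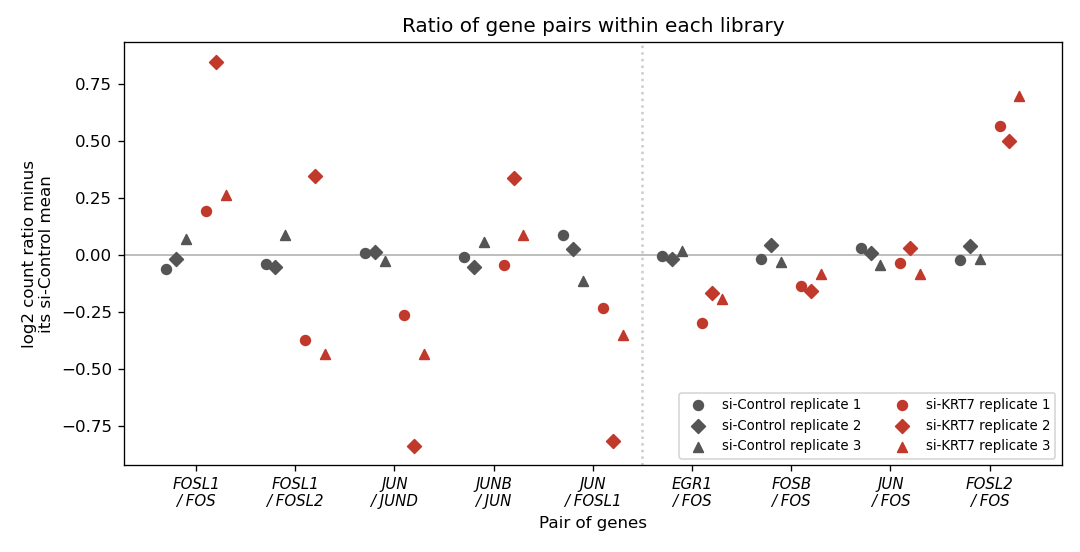
Log2 ratio of the counts of gene pairs within each library, minus the si-Control mean of that ratio (vertical axis), with groups and replicates marked as in the plot of CPM by library. Left of the dotted line are the 5 ratios that were tested, and right of it the 4 ratios to FOS chosen later. JUN/JUND, JUN/FOSL1, EGR1/FOS and FOSB/FOS are lower and FOSL1/FOS and FOSL2/FOS higher in all 3 si-KRT7 libraries, and JUN/FOS overlaps.

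Across the 6 libraries, which fall into 2 groups, the pattern of log2 CPM was most alike among 4 members, FOS, FOSB, JUN and EGR1. Pearson's r, given as a description of likeness only, was 0.996 between FOS and FOSB, 0.990 between FOS and JUN, and 0.990 between FOS and EGR1. FOSL1 and JUND formed a second pair (r = 0.956), and FOSL2 ran opposite to both (r = -0.911 and -0.943). In the first set all 3 si-KRT7 libraries lay below the si-Control libraries, and in the second si-KRT7 replicate 2 lay at one end. The first set holds the 4 members called lower, so its high r is in part set by the group difference. JUNB and ATF3, also below the si-Control range, had r of 0.852 and 0.873 with FOS. Without that library 5 remain, too few for r to be given. Among 12461 other genes, FOSB ranked 12 in likeness to FOS, and FOS ranked 59 in likeness to EGR1. JUND ranked only 639 in likeness to FOSL1 and FOSL1 573 in likeness to JUND, so many other genes were closer to either. FOSL2 ranked 11016 in likeness to FOSL1, with many genes running more opposite.

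The 3 genes most like EGR1 had r between 0.998 and 0.999 over the 6 libraries. The nearest, ENSG00000004487, had a log2 fold change of -0.29 and did not pass the test (adjusted p = 0.0644 in edgeR). The others passed it: ENSG00000081277 fell by 0.52 and ENSG00000139644 by 0.29 on the log2 scale, with an adjusted p of 0.0117 and 0.0481 in edgeR. For FOSL1 the 3 nearest genes also had r of 0.998 to 0.999, and for MYC r of 0.979 to 0.990, and the lowest adjusted p among these 6 genes was 0.221 in edgeR. All 9 genes were chosen by likeness over libraries of both groups, so whether they passed was in part set by that choice. The choice depended on the normalization, since 4 of the 9 genes were again among the nearest 3 with library size alone.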

How the data were processed

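The table deposited by the authors holds raw counts of reads for each gene in 6 libraries. The submitters' processing notes list STAR 2.7.11b and GRCm39, a mouse build, while the identifiers are human. The counting tool, annotation and strand setting are not given in the sources used here, so reads of overlapping antisense genes cannot be told apart. No per-sample column was left unused. Identifiers were paired with the 10 names as given with the selection, and 0 of the identifiers tested were found in the reference tables used here, which cover mouse genes. For this reason KRT7, cell type markers, lists of related pathway genes, gene length, coordinates and sequences were not analysed here. Intervals for counting error take no account of PCR duplicates.

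The fit across all genes was made with edgeR 4.0.16 under R 4.3.3 (filterByExpr, TMM, glmQLFit, glmQLFTest, Benjamini-Hochberg adjustment over 15736 genes), with limits of 0.05 on the adjusted p and, as a second limit, 1 on the absolute log2 fold change. Standard errors are the log2 fold change divided by the square root of F. Log2 CPM used a prior count of 2 and count ratios one of 0.5. Single values were tested by exact permutation in scipy 1.17.1, two-sided. DESeq2 1.42.0, limma 3.58.1 and other settings were alternatives. The fits were tested on simulated data without an outlying library and with larger fold changes than those of the members. That test therefore does not cover the case of si-KRT7 replicate 2. The named genes are the 10 members and, for EGR1, FOSL1 and MYC, the 3 genes with the highest correlation among those with a mean of at least 50 counts. Members, lists and tests were chosen with earlier results of these data known.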

Additional observations from a re-analysis of the deposited data

How the results depend on the processing

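The direction of EGR1, FOSB, FOS, JUN, JUNB, ATF3, FOSL1 and MYC was kept in all 15 alternatives, and EGR1, FOSB, FOS and JUN were called with library size only, DESeq2's size factors and Wald test, limma-voom with and without sample quality weights, the robust fit and both other filters on counts. JUNB, just over the limit, was called with library size only (-0.44), DESeq2's Wald test (-0.45), sample quality weights (-0.54) and no filter on counts (-0.47). With sample quality weights 10 members were called, 9 lower and 1 higher, among them FOSL1 (-0.27), FOSL2 (0.11), JUND (-0.22), ATF3 (-0.35) and MYC (-0.15), as in the fit without si-KRT7 replicate 2. That setting called 43.6% of all genes, DESeq2's Wald test 7.3% and no filter on counts 4.41%, against 2.07% in the main fit.

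With each library left out in turn, 0 to 10 members were called, 0 to 9 lower and 0 to 1 higher, the highest without si-KRT7 replicate 2 and the 0 without any si-Control library, where 5 or 6 members had an unadjusted p under 0.05 in edgeR. Of all genes, 42.9% were called without si-KRT7 replicate 2 and 0.0372% to 0.0616% without a si-Control library. The log2 fold changes ran from -0.60 to -0.53 (FOS), -0.72 to -0.63 (FOSB), -0.30 to -0.0214 (FOSL1), -0.0244 to 0.11 (FOSL2), -0.62 to -0.56 (JUN), -0.56 to -0.40 (JUNB), -0.24 to 0.0282 (JUND), -0.43 to -0.31 (ATF3), -0.79 to -0.76 (EGR1) and -0.16 to -0.10 (MYC). FOSL2 changed sign without si-KRT7 replicate 3 (-0.0244), and JUND without si-KRT7 replicate 1 (0.0282) or 3 (0.00546). The members without overlap numbered 6 to 10, the 10 without si-KRT7 replicate 2. The 5 tested ratios kept their direction under both prior counts and with each library left out, although FOSL1 to FOSL2 shrank from -0.15 to -0.0115 without si-KRT7 replicate 3 and -0.0424 without replicate 1, and JUNB to JUN from 0.13 to 0.0222 without replicate 2.

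Over all genes, 325 had an adjusted p under 0.05 (112 higher, 213 lower) and 46 passed both limits (23 higher, 23 lower). DESeq2's Wald test gave 1148 (529 higher, 619 lower) and 103 (65 higher, 38 lower), sample quality weights 6858 (3426 higher, 3432 lower) and 443 (283 higher, 160 lower), and no filter on counts 1347 (689 higher, 658 lower) and 154 (98 higher, 56 lower). With each library left out, the adjusted p gave 6 to 6944 (2 to 3379 higher, 4 to 3565 lower) and both limits 6 to 356 (2 to 215 higher, 4 to 141 lower), with every highest value without si-KRT7 replicate 2. The cause was not tested.

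With the replicate block 2 members were called, both lower (EGR1 and FOSB), while FOS (-0.56) and JUN (-0.59) had an adjusted p of 0.0546 and 0.057 in edgeR. Over all genes the block gave 76 (26 higher, 50 lower) and 25 past both limits (13 higher, 12 lower). After subtraction of the group means, libraries with the same number correlated at 0.052, -0.0798 and -0.0728 over genes. Of the 3 si-KRT7 libraries, 0 correlated best with the si-Control library of its number. With 3 libraries per group these values cannot show whether libraries of the same number shared a culture or batch, and the labels do not say. Alternatives planned for KRT7 and for pathway lists were not run, because identifiers could not be paired with names.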
